A study of Homo sapiens with 6 samples.

Results

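The 9 genes described here, UPF1, UPF2, UPF3A, UPF3B, SMG1, SMG5, SMG6, SMG8 and SMG9, encode core proteins of nonsense-mediated mRNA decay (NMD). They were found by matching gene symbols, and all 9 were among the 26364 genes of the count table. RNA fragments were sequenced from HEK293T, an established line derived from human embryonic kidney, and every culture had received 200 nM okadaic acid for 3 h. Okadaic acid blocks the phosphatases that take phosphate off UPF1, so both groups carry that treatment and there is no untreated group. The p-UPF1 IP group (label numbers 3, 6 and 9, written IP here) is RNA pulled down by an antibody to UPF1 in its phosphorylated form (p-UPF1). The control group (1, 4 and 7) is titled pre-IP but carries a rabbit IgG antibody label, and the protocol mentions a parallel precipitation with rabbit IgG. Whether it is input RNA or a mock precipitate is therefore undecided, and its title is used. Nothing states that replicates were separate cultures. The p-values therefore set each group difference only against the spread among these libraries, and that spread may be technical.

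NMD destroys mRNAs on which a ribosome terminates too early or in an unfavourable context. The helicase UPF1 gathers on such mRNAs and is phosphorylated by the kinase SMG1, which is held in check by its partners SMG8 and SMG9. UPF2 and UPF3B join UPF1 to the exon junction complex and stimulate it, and UPF3A is the paralog of UPF3B. Phosphorylated UPF1 then recruits the endonuclease SMG6 and the adaptor SMG5. The mRNAs of several NMD factors are known to be NMD substrates themselves, a feedback described in human cells. The comparison shows how the RNA of each factor is represented in the p-UPF1 precipitate relative to pre-IP. As the type of control is undecided, binding to p-UPF1 was not tested apart from RNA carried along in any precipitate. The comparison measures RNA, not the factor proteins.

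Libraries held 600244 to 1179369 counts in pre-IP and 905926 to 2057647 in IP. Protein-coding genes took 23.8% to 35.3% of counts in pre-IP and 55.0% to 73.4% in IP. Values are therefore given as CPM, counts scaled to library size, after TMM normalization, which centres most genes near no change, unless library totals are named. Across genes, log2 CPM correlated at 0.74 to 0.79 between pre-IP libraries and at 0.91 to 0.92 between IP libraries. Of 9 markers of HEK293-type cells, all 9 had counts (together 218 to 322 CPM of the library total in pre-IP, 1076 to 1300 in IP). VIM alone held 209, 90 and 120 of the list's 380, 137 and 206 counts in pre-IP. In IP, VIM held 1510, 1527 and 720 of 2213, 2287 and 1178. LIN28B had no count in pre-IP replicate 4, and KRT8 and KRT18 had none in pre-IP replicate 7. The renal factor PAX2 was at 0 in all 3 pre-IP libraries and had 5, 0 and 4 counts in IP. Of 11 markers of blood, liver, fibroblast, muscle and epidermis, 7 were at 0 in every library and the list summed to 0 to 6.35 CPM of the library total in pre-IP and 3.31 to 6.80 in IP. The part of these markers in the results was not tested.

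NMD acts on terminating ribosomes, so the end of the coding sequence is shown for the 3 genes that rose and for SMG8, which did not. The bases come from GENCODE release 29 transcripts, written 5′ to 3′ on the mRNA strand with the stop codon in capitals.

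UPF1: ctgtcccagtatTAAaaggtggcggcg

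SMG1: acagcctgggtgTGAatggcaagacag

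SMG5: aaggaaattggtTGAtactgaccccca

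SMG8: gcagtaacacaaTAAgtgttttccagc

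Of the 9 genes, 7 ended in TGA and 2, UPF1 and SMG8, in TAA, while TGA closed 49.2% and TAA 28.4% of 18055 coding sequences matched to the table. The UPF1 window also encodes a serine-glutamine pair, TCCCAG, with 1 codon between it and the stop codon. In the SMG8 window a threonine-glutamine pair, ACACAA, lies directly before the stop codon. Serine or threonine followed by glutamine is the motif that SMG1 and related kinases phosphorylate. UPF1 had 28 such codon pairs in 1118 codons. That is 25 for every 1000 codons, against a median of 5.29 over 15880 coding genes. SMG9 had 9.62, SMG1 8.19, SMG8 8.07, UPF3A 6.30, SMG5 5.91, SMG6 4.93 and UPF2 2.36 per 1000 codons, and UPF3B had none.

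Of the 9 genes, 3 rose in IP (SMG1, UPF1 and SMG5), none fell, 5 were tested without a call, and UPF3A was too thinly counted to be tested. Over all 8070 genes tested, 8.81% were called higher and 10.9% lower (edgeR quasi-likelihood F-test, Benjamini-Hochberg 0.05), and among the 7469 protein-coding genes 9.17% were higher. Without adjustment, at an edgeR p under 0.05, 5 of the 8 tested genes were higher and 0 lower, beside 17.3% and 16.7% of all tested genes. DESeq2 called 3 of the 8 higher and 0 lower, beside 10.2% and 11.9% of all genes. For limma-voom these were 4 and 0, beside 8.07% and 12.8%. In 5 of the 8 (UPF1, UPF2, SMG1, SMG5 and SMG6) every IP library lay above every pre-IP library, as did 21.9% of all tested genes. The median log2 fold change of the 8 was 1.43, beside 0.10 over all tested genes. The filter on low counts bears on these figures. It passed a gene thinly counted in pre-IP only if its IP level was high enough, which favours higher fold changes among such genes. SMG5 and SMG8 reached the filter level, 9.41 CPM of the library total, in all libraries. The other 6 reached it in full only in IP, as did 52.5% of all tested genes. The figures were not set against genes admitted in the same way.

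**Figure D1:**
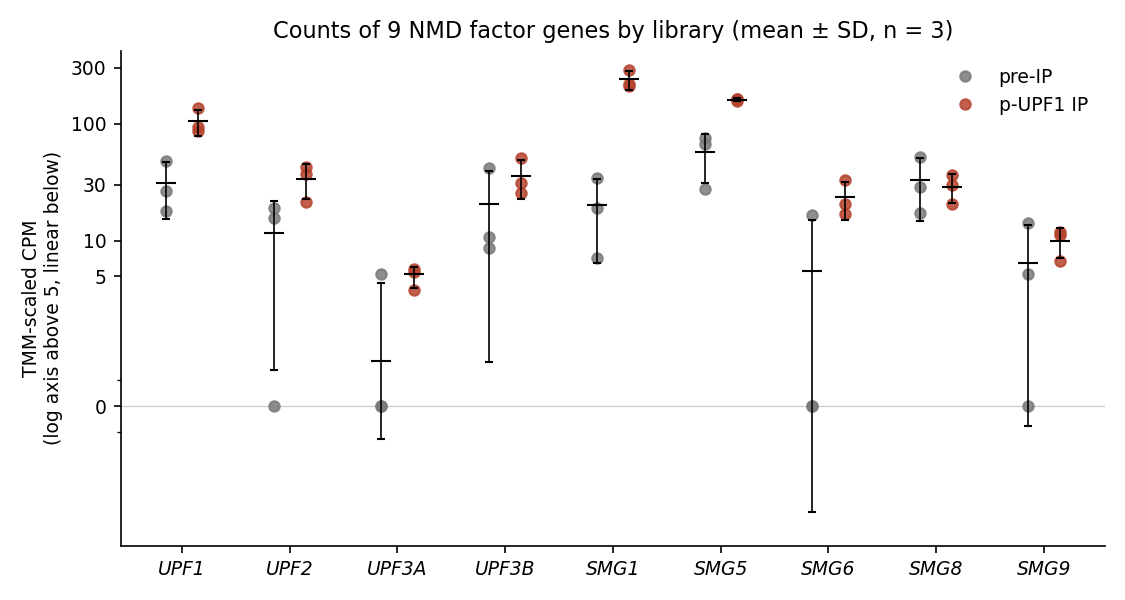
TMM-scaled CPM (vertical axis, logarithmic above 5 and linear below) of the 9 genes in each library. Points are libraries (grey pre-IP, red p-UPF1 IP), and black dashes with bars are mean ± SD (n = 3). SMG1 runs from 7.16 to 34.5 in the grey points and from 209 to 290 in the red, while the groups of SMG8, SMG9, UPF3A and UPF3B overlap.

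**Figure D2:**
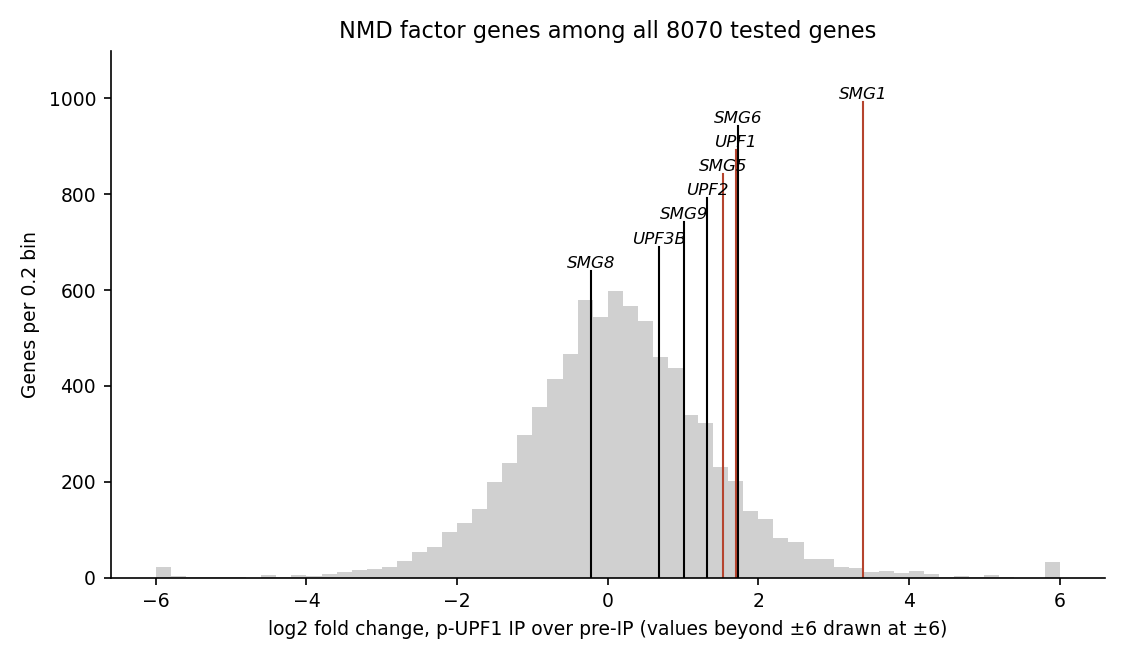
Number of genes (vertical axis) by log2 fold change of p-UPF1 IP over pre-IP (horizontal axis, bins of 0.2) for all 8070 tested genes. Lines mark the 8 tested NMD factor genes, red where called higher. SMG1 at 3.39 stands at rank 107 from the top, SMG8 at -0.22 near the middle.

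SMG1, the kinase, showed the largest difference of the 8 tested genes. Pre-IP libraries 1, 4 and 7 held 27, 2 and 11 SMG1 counts, and IP libraries 3, 6 and 9 held 949, 575 and 389. Scaled, these were 34.5, 7.16 and 19.0 CPM in pre-IP and 290, 209 and 218 CPM in IP. The groups lay far apart, the lowest IP library standing 6.06-fold above the highest pre-IP library. SMG1 rose by 3.39 on the log2 scale (SE 0.39, edgeR adjusted p = 2.4e-05), a 10.5-fold difference of scaled levels that ranked 107 of 8070. With each library left out in turn the log2 fold change stayed between 3.16 and 4.03, the latter without pre-IP replicate 1, and the highest adjusted p was 0.000271. From pooled counts, 40 against 1913, the scaled ratio was 10.0 with a 95% counting interval (exact, Clopper-Pearson) of 7.35 to 14.1. PCR reads without molecular identifiers are not independent molecules, so this and later intervals cover counting error only.

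SMG1 has near-copies on the same chromosome, 16, that share its sequence. Of the windows of 25 nt along the main SMG1 transcript, 22.5% also occurred in transcripts of SMG1 pseudogenes, and of windows of 50 nt 17.2%, so how the authors counted such reads could move the value. The 5 pseudogene rows of the table held 3, 0 and 0 counts in pre-IP and 51, 57 and 21 in IP, 6.74% of the SMG1 counts in IP. SMG1P3 had 3 counts in pre-IP and SMG1P1, SMG1P2, SMG1P5 and SMG1P7 had 0. With all of them added to SMG1 the log2 fold change was 3.39 again (adjusted p = 2.7e-05). That sum holds only reads that were counted. It cannot show what reads matching SMG1 and its copies equally would change, had the counting left them out.

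SMG8 and SMG9, the partners that restrain SMG1, were not called. SMG8 had 41, 8 and 10 counts in pre-IP and 119, 57 and 54 in IP, or 52.5, 28.6 and 17.3 CPM against 36.3, 20.7 and 30.2 CPM once scaled. The groups overlapped, with SMG8 at -0.22 on the log2 scale (SE 0.46, edgeR adjusted p = 0.783). That sign turned to 0.42 without pre-IP replicate 1, the highest pre-IP library (adjusted p = 0.608), and to 1.31 with library totals alone (adjusted p = 0.0367). On library totals, here and below, 60.4% of all tested genes were called higher, and the median log2 fold change over all tested genes was 1.63. SMG9, which binds SMG8, had 0, 4 and 3 counts in pre-IP and 39, 31 and 12 in IP. Its log2 fold change was 1.01 with an SE nearly as large (0.94, adjusted p = 0.484), and its scaled groups overlapped. It ran from 0.21 without pre-IP replicate 1 to 2.13 without pre-IP replicate 4, with no call in either fit (adjusted p = 0.888 and 0.204). The pooled ratio of SMG9 was 2.46, with a counting interval of 1.14 to 6.31.

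UPF1, whose protein the antibody recognises when phosphorylated, was higher in every IP library. It had 21, 5 and 28 counts in pre-IP and 310, 236 and 241 in IP. Scaled, these were 26.9, 17.9 and 48.4 CPM, and 94.7, 85.9 and 135 CPM, so that the lowest IP library was 1.78-fold above the highest pre-IP library. UPF1 rose by 1.70 (SE 0.38, adjusted p = 0.00461), or 3.24-fold. This call held with each library left out (1.49 to 2.17, adjusted p at most 0.0432, reached on omitting IP replicate 9). It was lost, at 0.99 and adjusted p = 0.0858, when the trend of log2 fold change with transcript GC content was removed. The main UPF1 transcript, at 60.5% GC, was the most GC-rich of the 9 transcripts, and over the 7469 tested protein-coding genes log2 fold change and GC content had a Spearman rho of 0.20.

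The UPF1 partners UPF2, UPF3A and UPF3B were thinly counted and none was called. UPF2, the bridge between UPF1 and UPF3B, had 15, 0 and 9 counts in pre-IP and 140, 59 and 67 in IP. In CPM, UPF2 stood at 19.2, 0 and 15.6 and then at 42.8, 21.5 and 37.5, groups that just did not overlap. The log2 fold change of UPF2 was 1.32 (SE 0.59, edgeR adjusted p = 0.12). UPF2 was called with no filter on low counts (1.49, adjusted p = 0.0414) and with library totals alone (2.83, adjusted p = 0.00117). The zero in pre-IP replicate 4 allows up to 10.7 CPM, the value of 3 counts in that library.

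UPF3B, which ties UPF2 to the exon junction complex, had 33, 3 and 5 counts in pre-IP and 167, 86 and 46 in IP. Its scaled levels of 42.2, 10.7 and 8.64 CPM in pre-IP overlapped with 51.0, 31.3 and 25.7 CPM in IP (log2 fold change 0.68, SE 0.53, adjusted p = 0.396). Pre-IP replicate 1 stood above the other two, and without it UPF3B was called (1.95, adjusted p = 0.0368). UPF3A, its paralog, had 0, 0 and 3 counts in pre-IP and 19, 15 and 8 in IP. The pooled UPF3A ratio was 2.94 with a counting interval of 0.939 to 14.8, so no difference was detectable at this depth on the TMM scale, while on library totals it was 7.94 (2.54 to 40.0). The paralogs shared no exact stretch of that kind, as 0 of 2363 windows of 25 nt along the main UPF3A transcript occurred in a UPF3B transcript. Shorter reads and reads with mismatches were not tested.

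SMG5 and SMG6, both recruited by p-UPF1, differed in how well they were measured. SMG5 had 53, 21 and 16 counts in pre-IP and 507, 450 and 292 in IP. Scaled, these were 67.8, 75.2 and 27.6 CPM against 155, 164 and 163 CPM, and the IP libraries were nearly equal. SMG5 rose by 1.53 (SE 0.35, adjusted p = 0.00513), or 2.89-fold, in every fit with a library left out (1.21 to 1.76, highest adjusted p = 0.024). Like UPF1 it lost the call with the GC trend removed (0.98, adjusted p = 0.0619). SMG6, the endonuclease that cuts near the stop codon, had all of its pre-IP counts in replicate 1: 13, 0 and 0, against 108, 57 and 30 in IP. At 16.6 CPM that library reached almost to the lowest IP value of 16.8. The log2 fold change of SMG6 was 1.73 (SE 0.81, adjusted p = 0.143), close to that of UPF1 but with a larger SE. Fits that used limma-voom (adjusted p = 0.0269), no filter on low counts (0.0363) or a replicate block (0.0469) called it, as did library totals alone (0.00297). It was also called without pre-IP replicate 1 (0.00625), where both remaining pre-IP libraries were at 0, so that the fitted fold is no measure of size. SMG6 overlaps the oppositely oriented genes HIC1 and SRR, and without a stated strand setting their reads could not be told apart from it.

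A comparison within each library needs no scaling between libraries. Of the counts of all 9 genes together (203, 43 and 85 in pre-IP, 2358, 1566 and 1139 in IP), SMG1 took 13.3%, 4.65% and 12.9% in pre-IP and 40.2%, 36.7% and 34.2% in IP. SMG8 took 20.2%, 18.6% and 11.8% in pre-IP and less, 5.05%, 3.64% and 4.74%, in IP. Neither gene's groups overlapped, and both gave a two-sided exact permutation p of 0.1, the smallest that 3 libraries against 3 allow (0.450 adjusted over the 9 genes). Shares of a whole are not independent: a gene's share is lower wherever the others take more, and the scaled level of SMG8 itself was not called (-0.22, adjusted p = 0.783). The share of UPF1 was 18.3% ± 12.7 (SD, n = 3) and 16.5% ± 4.18, and that of SMG5 31.3% ± 15.7 and 25.3% ± 3.63, with overlapping groups. Shares in pre-IP were imprecise, as the 95% exact interval of SMG1 in replicate 4 ran from 0.568% to 15.8%. The 9 genes as a whole took 0.0352% ± 0.0118 of protein-coding counts in pre-IP and 0.171% ± 0.0157 in IP, a ratio of 4.84. SMG1 alone made up 34.2% to 40.2% of the 9 genes' counts in IP. On library totals the median tested gene also rose, by 1.63 on the log2 scale, while the protein-coding share of all counts rose 2.05-fold.

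**Figure D3:**
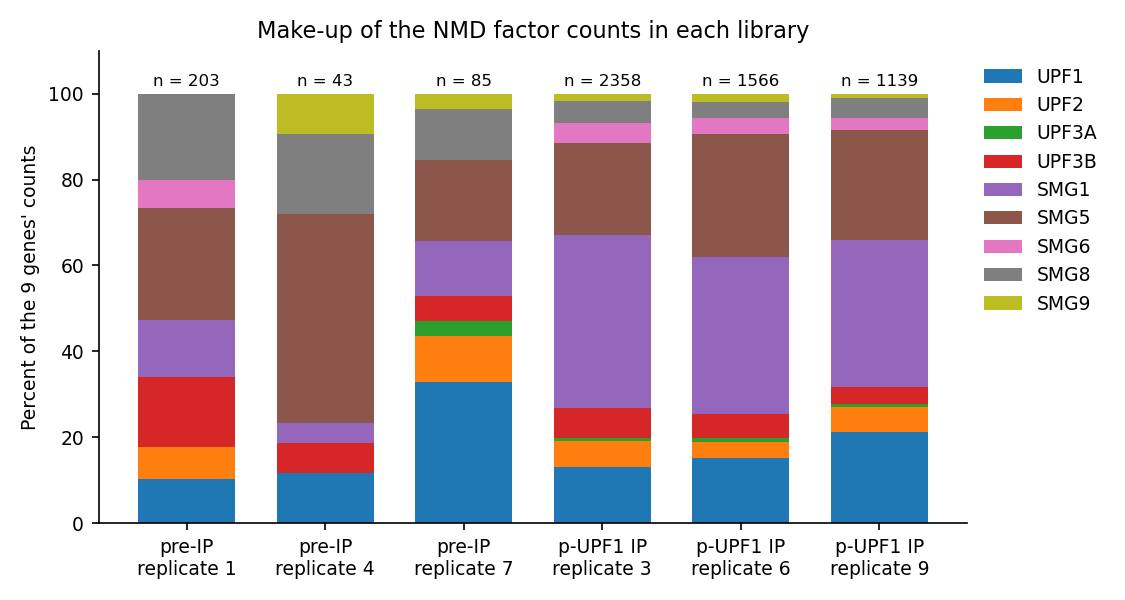
Make-up of the counts of the 9 genes (vertical axis, percent of their sum) in each library, with that sum above each bar. The SMG1 band takes 34.2% to 40.2% of the 3 IP bars and 4.65% to 13.3% of the pre-IP bars, and the SMG8 band 3.64% to 5.05% and 11.8% to 20.2%.

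Per kilobase of transcript, the order of the means differed between the groups. In pre-IP SMG5 led with 12.5 ± 5.61 scaled CPM per kb (SD, n = 3), followed by SMG8 (9.43 ± 5.16), UPF3B (8.64 ± 7.91), UPF1 (5.81 ± 2.93) and UPF2 (2.08 ± 1.83). SMG1 came sixth at 1.26 ± 0.852, and SMG9, SMG6 and UPF3A were at 1.18 or less. The ranges of every pair of neighbours in that order overlapped. In IP SMG5 led again at 35.2 ± 1.10, clear of UPF1 (19.7 ± 4.87). UPF1, UPF3B (15.1 ± 5.58) and SMG1 (14.8 ± 2.75) overlapped with their neighbours, and SMG1 lay clear of SMG8 (8.37 ± 2.26). UPF2 (6.09 ± 1.99) overlapped with SMG8 and with SMG6 (3.94 ± 1.42). SMG6 lay clear of UPF3A (2.20 ± 0.289) and SMG9 (1.81 ± 0.515), which overlapped. The SMG1 mRNA is long, 16115 nt, and it had the most counts of the 9 in IP. Per kilobase its IP mean stood below those of SMG5, UPF1 and UPF3B, though its range overlapped with those of UPF1 and UPF3B. The SMG1 value would be too low if reads shared with its pseudogenes were left out of the counting, which was not tested.

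Among the 8 tested genes, log2 fold change followed transcript length with a Spearman rho of 0.79 and 3′ UTR length with one of 0.74, while over the 7469 tested protein-coding genes these were 0.34 and 0.10. The genes share their libraries, and 8 points make this a description only. SMG1 has the longest transcript and the longest 3′ UTR of the 9 (4716 nt), and SMG8 the shortest 3′ UTR (237 nt), beside a median of 1327 nt over tested protein-coding genes. With the length trend removed SMG1 kept its call at 2.41 (adjusted p = 0.000867), as did UPF1 (1.22, 0.0433) and SMG5 (1.12, 0.0419). None of the 9 main transcripts has an exon junction more than 50 nt after its stop codon, the arrangement best known to trigger NMD. An upstream ATG lies in the 5′ UTR of 4 of them (13 in UPF2 and 1 each in SMG1, SMG5 and SMG9), and the annotation types 1 transcript each of SMG1, SMG8 and SMG9 as an NMD substrate. The counts are per gene, so which transcript the fragments came from was not tested.

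**Figure D4:**
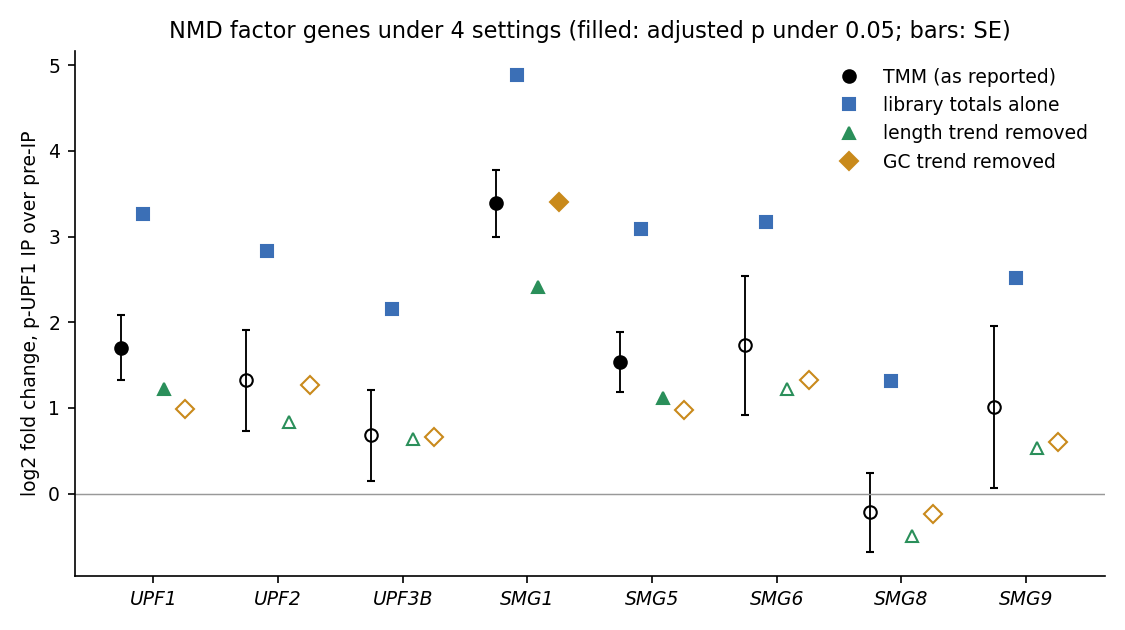
log2 fold change of p-UPF1 IP over pre-IP (vertical axis) of the 8 tested genes under TMM scaling (black, with SE bars), library totals alone (blue), and with the trend of transcript length (green) or GC content (yellow) removed. Filled symbols have an adjusted p under 0.05. SMG1 is filled under all 4 settings, while UPF1 and SMG5 are open with the GC trend removed.

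The scale decides how many of the genes count as higher. On library totals alone all 8 tested genes were called higher, but so were 60.4% of all tested genes, and the median log2 fold change over all of them was 1.63. On that scale SMG1 stood at 4.89, UPF1 at 3.26, SMG6 at 3.17 and SMG5 at 3.09, and the median of the 8 was 2.96.

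Of 25 other genes of the pathway, 23 were tested, of which 2 rose and 2 fell, and their median log2 fold change was 0.19. These counts are close to the background of 8.81% higher and 10.9% lower over all tested genes, so neither they nor the counts by role set the pathway apart. Of those that rose, the 5′-to-3′ exonuclease XRN1 did so by 1.79 (adjusted p = 0.0477), from 23, 0 and 2 counts to 162, 122 and 85. The XRN1 call was lost without any one library except pre-IP replicate 1 (adjusted p up to 0.141, at IP replicate 3). Without pre-IP replicate 1, which held 23 of its 25 pre-IP counts, XRN1 stood at 4.32 (adjusted p = 0.00124). The call was also lost with the trend of length, GC content or 3′ UTR length removed, with a filter of at least 20 counts in at least 3 libraries and with protein-coding genes only. MAGOH, of the exon junction complex, fell by 1.16 (adjusted p = 0.0213), and RUVBL1, an ATPase that helps assemble SMG1-type kinases, fell by 1.31 (adjusted p = 0.0105). On library totals alone both were positive without a call (0.43 and 0.22). MAGOH stood at -0.058 with the length trend removed (adjusted p = 0.926) and at -0.98 with no filter on low counts (0.0641). It also lost its call when pre-IP replicate 4 or the IP libraries 6 or 9 were omitted (adjusted p up to 0.0977), and RUVBL1 when IP library 6 or 9 was (up to 0.0665).

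By role, 0 of 2 tested release factors were called, and 0 of 6 exon junction complex genes rose and 1 fell. Of 3 subunits of protein phosphatase 2A, a target of okadaic acid, 0 were called, with log2 fold changes from -0.86 (PPP2CA, adjusted p = 0.0607) to 0.74 (PPP2R1A, 0.0984). Of 4 decapping and 5′ decay genes 1 rose, XRN1, and of 4 kinase assembly cofactors 1 fell, RUVBL1. The release factor GSPT2 had no count in any library.

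Among the genes whose profile over the 6 libraries lay nearest to UPF1, by root-mean-square difference of centred log2 CPM among 4035 genes of at least median level, were TMEM164 (0.206) and the ubiquitin ligase BIRC6 (0.255). BIRC6 had 34, 13 and 50 counts in pre-IP and 724, 394 and 400 in IP. Nearest to SMG1 were the dehydrogenase subunit DHTKD1 (0.367), the histone methyltransferase KMT2D (0.373) and BOD1L1 (0.443), with pre-IP totals of 8, 15 and 10 counts and IP totals of 465, 640 and 502.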

How the data were processed

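The data are 6 libraries: 3 titled pre-IP and 3 from the p-UPF1 immunoprecipitation. The deposited values are whole-number read counts per gene symbol, made by the authors. The submitters' processing notes list hg19, STAR 2.5.2b, cutadapt 1.15 and Subread 1.5.0p3 with featureCounts. The sources used here do not give the annotation, strand setting or treatment of multiply matching reads. Per the labels' protocols, inserts above 20 bp were selected after adapter ligation to both ends.

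All genes were fitted together in edgeR 4.0.16 (R 4.3.3) by its quasi-likelihood test (filterByExpr, minimum count 10, TMM, Benjamini-Hochberg 0.05), after a check on simulated counts. Each SE was obtained as |log2 fold change| over the root of the F statistic. The settings also tried were library totals alone, upper-quartile and RLE scaling, 2 other filters, DESeq2 1.42.0, limma-voom (limma 3.58.1), a replicate block, the 10 most counted genes left out, protein-coding genes only, loess trends (span 0.75) of length, GC or 3′ UTR length removed, and each library left out. Transcripts came from GENCODE 29 (GRCh38, principal then longest), matched by symbol for 23800 of 26364 genes. Because the table was made on another build, coordinates are left out.

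The genes named were the 9 members, SMG1 pseudogenes, called pathway genes, and the 3 nearest profiles of UPF1 and SMG1, of which some are not reported here. Members and lists were chosen with earlier results of these data known. Other pathway genes and markers were given as examples after their values were seen.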

Additional observations from a re-analysis of the deposited data

How the results depend on the processing

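SMG1 was called higher in all 20 alternatives, and UPF1 and SMG5 in 19 of 20, the exception being the GC trend removed. The number of the 9 NMD factor genes called higher was 3 as reported, 8 with library totals alone, 5 with no filter on low counts, 1 with the GC trend removed, and 3 to 5 with each library left out (5 without pre-IP replicate 1). Over all genes, 711 were called higher and 880 lower as reported. These became 4874 and 156 with library totals alone and 288 and 549 with the length trend removed. The number higher was 1101 with no filter, 399 with the GC trend removed and 427 with the 3′ UTR length trend removed, an alternative added after seeing the data, as was the sum with SMG1 pseudogenes. With each library left out 273 to 795 were higher and 518 to 833 lower. Leaving out p-UPF1 IP replicate 3, 6 or 9 gave 273, 333 and 312 higher.

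Of the other pathway genes 18 were called higher and 0 lower with library totals alone. The number higher was 0 with the length trend removed and 1 each with a filter of at least 20 counts in at least 3 libraries, protein-coding genes only, or the GC or 3′ UTR trend removed, and the number lower was 1 with no filter. With each library left out 0 to 4 were higher and 0 to 3 lower. SMG8 ran from -0.53 to 0.42 with each library left out (0.42 without pre-IP replicate 1). With library totals alone SMG8 turned to 1.31, MAGOH to 0.43 and RUVBL1 to 0.22. The median log2 fold change over all tested genes also moved on that scale, from 0.10 as reported to 1.63. The median of the tested other pathway genes, 0.19, turned to -0.073 with the GC trend removed and -0.047 with the 3′ UTR trend removed. The cause was not tested.

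The groups share no label numbers. Pairing 1 with 3, 4 with 6 and 7 with 9 gave correlations of deviations from the group means of 0.092, 0.172 and 0.102, the highest for each library, and a replicate block called 780 genes higher and 876 lower, adding SMG6 among the 9 genes. Depth was lowest in pre-IP replicate 4, with 43 counts of the 9 genes and a floor of 10.7 CPM. Without it UPF2 (adjusted p = 0.17), SMG6 (0.219) and SMG9 (0.204) were again not called.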
